A study of Canis lupus familiaris with 8 samples.

Results

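Signalling through G protein coupled receptors and cyclic nucleotides was represented on the canine array by 100 probe sets of 59 genes, out of 23836 probe sets tested. The members were chosen by gene symbol. A probe set was taken where the array's annotation gave it a single symbol from the families of adrenergic, angiotensin, endothelin, muscarinic, serotonin, purine, adenosine, prostaglandin, bradykinin, dopamine or numbered orphan (GPR) receptors, G protein subunits, adenylyl cyclases, phosphodiesterases other than PDE5A, RGS proteins, receptor kinases or arrestins. The rule itself uses no measured value, but it was set with earlier results of these data known. Of the tested probe sets 10549 had a single symbol, and those with no symbol may include others of these genes. The members are 41 probe sets of 25 receptor genes, 12 of 9 G protein subunit genes, 27 of 15 genes for enzymes that make or break down cyclic nucleotides, 16 of 6 genes for regulators, and 4 that share the name pattern alone. Beta-adrenergic receptors, arrestins, PDE3A and the receptor kinases GRK2 and GRK5 were not analysed here, because no probe set with a single symbol matched them.

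A receptor of this family lies in the cell membrane, binds a hormone or transmitter, and activates a G protein made of an alpha, a beta and a gamma subunit. The alpha subunit of Gs stimulates and that of Gi inhibits adenylyl cyclase, which makes cyclic AMP, while those of Gq and G11 activate phospholipase C beta. Phosphodiesterases break down cyclic AMP and cyclic GMP, and RGS proteins and receptor kinases end the signal. In the heart this chain carries the sympathetic and vagal control of rate and force and the vascular actions of angiotensin and endothelin.

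RNA came from the left ventricle of 4 dogs per group, and each dog had its own Affymetrix Canine Genome Array. The DM dogs, 0292, 0294, 1087 and 1111, were male mongrel dogs, per the labels of 23 to 27 kg, where the methods state a somewhat heavier range, that were made diabetic with intravenous alloxan (40 to 60 mg/kg), which destroys the beta cells of the pancreas, and that were killed 4 weeks later. Per the methods, some dogs whose glucose stayed low received alloxan again, and injected dogs entered the DM group only if their fasting blood glucose was high. The control dogs, D5, D6, D7 and D8, were male mongrel dogs of the same labelled weight without alloxan, and dogs of both groups had been instrumented for haemodynamic recordings. Values below are log2 of the quantile normalized signal plus an offset of 16, and differences are DM minus control on that scale, which understates changes of dim probe sets. Values of single dogs are given in the order 0292, 0294, 1087 and 1111 for DM dogs and D5, D6, D7 and D8 for control dogs. Levels are compared between dogs for the same probe set and not between probe sets.

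Each array carries 17 tag controls, probe sets for synthetic sequences that the dog does not make, and their highest value gives a background for each array. Their mean was 6.43 ± 0.38 log2 in DM dogs and 5.43 ± 0.43 in control dogs (SD, n = 4 each; two-sided exact permutation, p = 0.0571). In control dog D8 it was 6.05, within the DM range of 5.87 to 6.73. The number of the 100 members above the highest tag control of the same array was 27, 13, 23 and 40 in DM dogs, and 65, 68, 48 and 7 in control dogs. Of all tested probe sets, 27.3%, 22.5%, 32.4% and 40.8% were above it in DM dogs, and 69.1%, 66.4%, 53.1% and 16.8% in control dogs. Only 2 members, GNAS and PTGER4, were above it on all 8 arrays, beside 10.0% of all tested probe sets. On none of the arrays, 11 of the 100 members were above it, beside 3643 of all 23836 tested probe sets. The mean Pearson r of an array with the others of its group was 0.623 ± 0.050 in DM dogs and 0.840 ± 0.045 in control dogs, with the lowest values of each group in 0292 (0.550) and D8 (0.773). The hybridization controls, transcripts added in fixed amounts, averaged 16.32 ± 1.05 log2 of the deposited signal in DM dogs and 13.88 ± 1.27 in control dogs (p = 0.0571 by exact permutation), and D8 again stood near the DM dogs at 15.77. The sources used here name no scan date or batch for any array, and the sample numbers of the DM arrays and of the control arrays fall in separate runs, so diabetes and a batch of arrays cannot be told apart. Of 13 listed cardiomyocyte markers 10 had a probe set, and 7 of these were above the highest tag control on all 8 arrays.

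**Figure D1:**
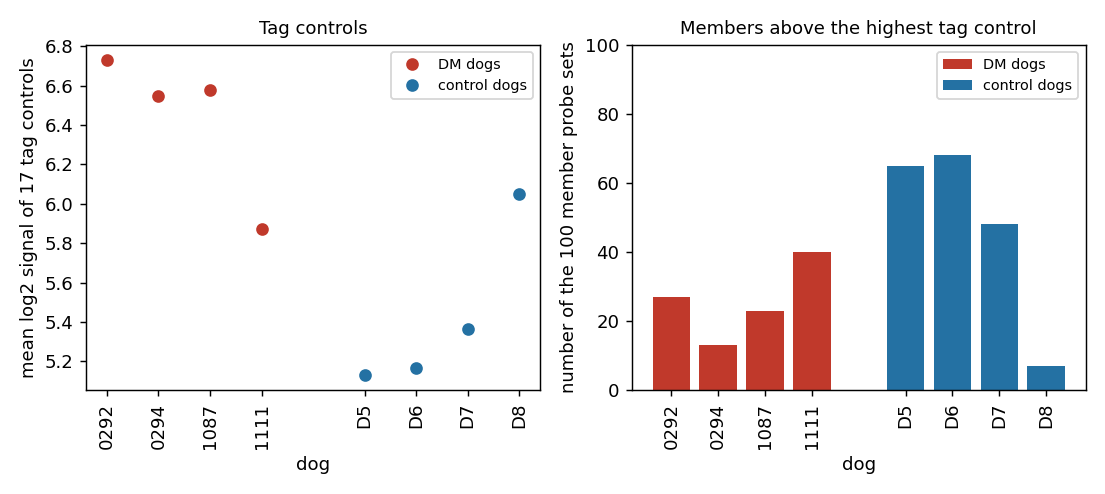
Background of the arrays, 1 point or bar per dog, with DM dogs on the left and control dogs on the right. The left panel gives the mean log2 signal of the 17 tag controls, with D8 at 6.05 among control dogs, and the right panel the number of the 100 member probe sets above the highest tag control of the same array, from 13 to 40 in DM dogs and from 7 to 68 in control dogs. Of all tested probe sets, 22.5% to 40.8% were above it in DM dogs and 16.8% to 69.1% in control dogs.

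Receptor, G protein, effector and regulator probe sets differed between DM and control dogs about as often as other probe sets of the array did. At an adjusted p under 0.05 in limma, 0 members passed, beside 0.0168% of all tested probe sets (4 of 23836), and the smallest adjusted p of a member was 0.0608. The methods' t-test after Benjamini-Hochberg adjustment also passed 0 members. At an unadjusted p under 0.05 in limma, 15 members passed, or 15% beside 16.7% of all probe sets. Of these, 10 were higher in DM dogs, beside 7.8% of all probe sets, and 5 were lower, beside 8.91%. By the criteria of the methods, a nominal P of at most 0.01 and at least 2-fold, 2 members passed, beside 4.96% of all probe sets. These were AGTR1, which was higher (beside 2.45% higher), and GNB3, which was lower (beside 2.52% lower). The DM and control values did not overlap in 8 members, beside 10.8% of all probe sets. ADCY2, AGTR1 and RGS2 were higher in every DM dog than in every control dog, beside 4.93% of all probe sets, and GNB3, PDE6G, EDNRA, HTR7 and GPR137 were lower, beside 5.87%. The share of members was thus at or below that of the whole array in each of these counts but 1, the members higher at an unadjusted p.

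The median difference of the 100 members was 0.11 log2, beside 0.06 over all tested probe sets, and 53 members had a positive difference, beside 51.9% of all probe sets. Receptors had a median of 0.29 (23 positive, 18 negative), G protein subunits -0.74 (5 and 7), effectors -0.05 (12 and 15) and regulators 0.41 (11 and 5). These medians were not tested, and probe sets of the same gene are not independent. With 1 probe set per gene, the one with the highest mean signal, the median of G protein subunits became 0.78 in place of -0.74. Over all probe sets the difference moved with the level of the signal. Above the median level, the 42 members had a median of -0.27 and all such probe sets -0.28. At or below it, the 58 members had 0.30 and all such probe sets 0.36. Dim members thus had more positive than negative differences and bright members more negative than positive ones, and so had other probe sets of the same level.

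**Figure D2:**
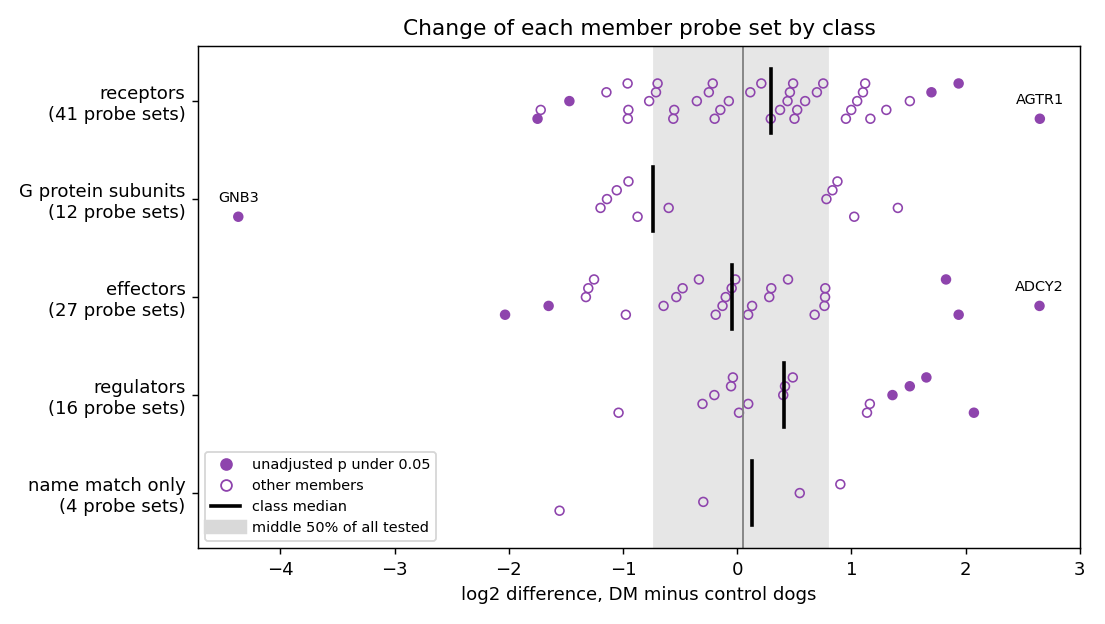
Log2 difference (DM minus control) of each of the 100 member probe sets, by class, with filled points at an unadjusted limma p under 0.05, black bars at the class medians, and the middle 50% of all tested probe sets in grey. The class medians run from -0.74 for G protein subunits to 0.41 for regulators, and GNB3 at -4.37 stands farthest from 0.

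**Figure D3:**
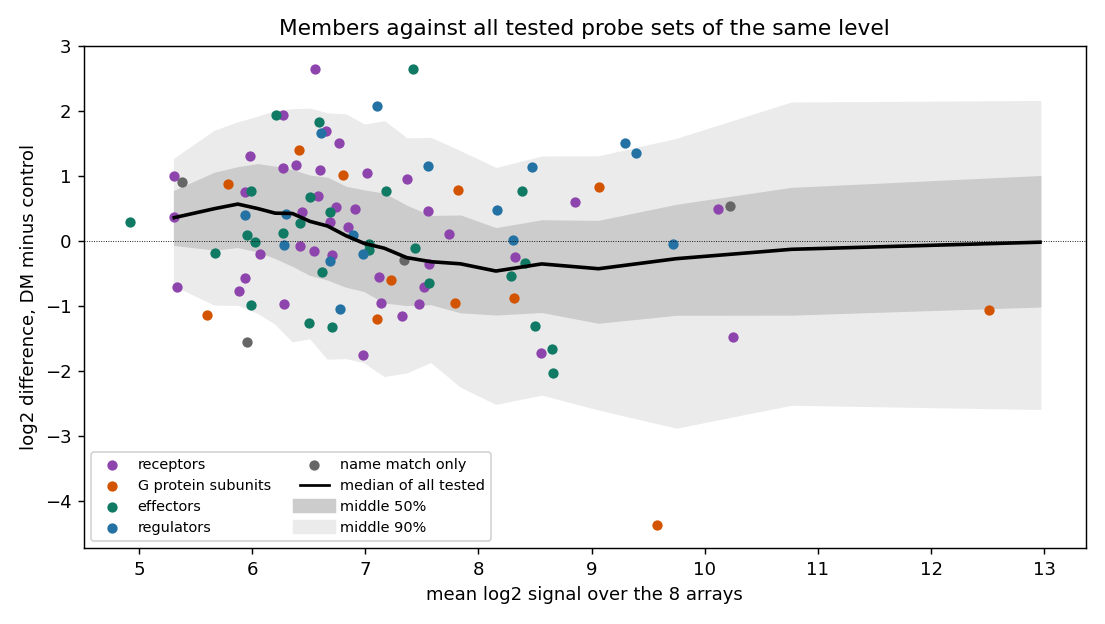
Log2 difference (DM minus control) of each member against its mean log2 signal over the 8 arrays, coloured by class, over the median and the middle 50% and 90% of all tested probe sets in 20 bins of level. The median of all probe sets lies above 0 at low signal and below 0 at high signal, and the members are spread around it.

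Among receptors of peptide hormones, AGTR1 was higher in DM dogs in 1 of its 2 probe sets, near the background of the arrays. AGTR1, the type 1 angiotensin II receptor, couples to Gq and constricts vessels. In 1583042_at the values were 8.83, 8.67, 7.37 and 6.64 log2 in DM dogs, and 5.14, 5.66, 5.13 and 4.98 in control dogs. All DM dogs were above all control dogs, but only 0292 was above the highest tag control of its own array, and no control dog was. The means were 7.88 ± 1.05 log2 in DM dogs and 5.23 ± 0.30 in control dogs (SD, n = 4 each). The difference was 2.65 log2 (SE 0.64, limma adjusted p = 0.0881), a value limited by background in both groups. With each control value set to its highest tag control, the DM mean was 1.48-fold higher. In the other AGTR1 probe set, 1583043_at, the values were 4.74, 8.04, 7.58 and 7.64 log2 in DM dogs, and 7.73, 6.07, 5.86 and 6.25 in control dogs. Here the groups overlapped at both ends, with 0292, the highest DM dog in the first probe set, the lowest of all dogs, and the difference was 0.53 log2 (SE 0.79). With array weights in limma, or without DM dog 1111, 1583042_at passed an adjusted p under 0.05 (0.0443 and 0.0397). Its difference was 0.99 log2 after scaling each array to its hybridization controls (limma adjusted p = 0.364). The median of all probe sets was then -1.65 log2, in place of 0.06. AGTR2, the type 2 receptor, had differences of -0.95 and -0.15 log2 in its 2 probe sets, with overlapping groups in both.

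EDNRA, the endothelin receptor that contracts vascular smooth muscle, had 1 probe set. Its values were 8.21, 9.53, 9.97 and 10.35 log2 in DM dogs, and 10.91, 11.01, 10.69 and 11.34 in control dogs. The groups did not overlap, and all DM dogs but 0292 were above the highest tag control of their array. The means were 9.52 ± 0.93 in DM dogs and 10.99 ± 0.27 in control dogs (SD, n = 4 each), a difference of -1.47 log2 (SE 0.62, limma adjusted p = 0.253). In whole tissue, fewer cells of a type and less RNA per cell cannot be told apart. Of 8 listed markers of smooth muscle cells and pericytes 5 had a probe set, 3 of them lower and 2 higher, and SMTN (-3.87 log2) and TAGLN (-1.81) had an unadjusted p under 0.05. The summed level of these 5 was 3837 to 6615 in DM dogs and 6642 to 12459 in control dogs (p = 0.0286 by exact permutation, which can go no lower with these group sizes), and its part in the EDNRA difference was not tested. SMTN gave the largest part of this sum in every control dog, and the sum was not tested without SMTN. The 2 higher markers were ACTA2 (0.41 log2) and KCNJ8 (1.24), with overlapping groups. EDNRB, the endothelin receptor of endothelial cells, had 6.23, 5.93, 7.66 and 8.15 log2 in DM dogs and 7.32, 7.80, 7.63 and 9.05 in control dogs. Its groups overlapped, and its difference was -0.96 log2 (SE 0.69). Of the endothelial markers with a probe set, 1 of 5 was higher and 4 were lower, with a median of -1.20 log2, TIE1 at a mean of 7.51 in DM dogs and 9.51 in control dogs (unadjusted p under 0.05 in limma), and ENG at -1.20 log2 and lower in every DM dog than in every control dog. Their summed level, most of it from PECAM1 (-0.31 log2), was 10484 to 47642 in DM dogs and 25229 to 43615 in control dogs (exact permutation test, p = 0.686). BDKRB2, the bradykinin receptor that releases nitric oxide from endothelium, had differences of 1.00 and 0.21 log2 with overlapping groups.

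Of the muscarinic and adrenergic receptor probe sets, 0 had an unadjusted p under 0.05 in limma and 1, of CHRM2, had one in the methods' t-test. CHRM2, the muscarinic receptor through which the vagus slows the heart, had 7.07, 6.89, 5.83 and 7.54 log2 in DM dogs and 5.29, 5.88, 6.25 and 5.43 in control dogs in 1582944_at. All DM dogs but 1087 were above all control dogs, no dog was above its highest tag control, and the difference was 1.12 log2 (SE 0.60, limma adjusted p = 0.369). The other CHRM2 probe set had a difference of 0.75 log2 (SE 0.78). CHRM3, the muscarinic receptor of endothelium and smooth muscle, had 1.31, -0.20 and -0.35 log2 in its 3 probe sets. ADRA1A, an alpha-adrenergic receptor coupled to Gq, had 1.10 and 0.44 log2 in its 2 probe sets, both with overlapping groups. ADORA3, an adenosine receptor coupled to Gi, had 0.95, -0.25 and -0.70 log2, and the 0.95 of 1582598_at was 0.0726 without 0292.

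Of the serotonin and dopamine receptors, HTR7 was lower and DRD2 higher at an unadjusted p. HTR7, a serotonin receptor coupled to Gs, had 6.97, 7.32, 5.28 and 4.84 log2 in DM dogs and 7.75, 7.72, 8.05 and 7.89 in control dogs in 1594504_at. The groups did not overlap, and the control dogs lay close together while the DM dogs were spread. The means were 6.10 ± 1.23 log2 in DM dogs and 7.85 ± 0.15 in control dogs (SD, n = 4 each), a difference of -1.75 log2 (SE 0.67, limma adjusted p = 0.217). No DM dog was above its highest tag control. With each DM value set to that tag control, control minus DM was -0.58 log2, so background limits both the size and the direction of this difference. The other HTR7 probe set had the same sign, at -0.96 log2 (SE 0.74), with overlapping groups. DRD2, a dopamine receptor coupled to Gi, had 7.10, 8.04, 9.06 and 4.77 log2 in DM dogs and 5.65, 5.15, 5.07 and 5.34 in control dogs in 1582615_s_at. Here 3 DM dogs were above all control dogs and 1111 was below them all, for a difference of 1.94 log2 (SE 0.81, limma adjusted p = 0.252). The other DRD2 probe set had the opposite sign, at -0.56 log2 (SE 0.75). HTR1B had 0.49 and -0.07 log2 and HTR2B had -0.71, all with overlapping groups.

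PTGER4, the prostaglandin E2 receptor coupled to Gs, was the only receptor above the highest tag control on all 8 arrays. Its values were 9.07, 10.44, 11.10 and 10.87 log2 in DM dogs, and 9.86, 9.73, 9.78 and 10.09 in control dogs. DM dogs lay both above and below the narrow control range, with 0292 the lowest of all and the other DM dogs the highest, and the difference was 0.50 log2 (SE 0.61, limma adjusted p = 0.717). PTGER2, which also couples to Gs, had 8.40, 5.05, 8.37 and 8.26 log2 in DM dogs and 5.45, 4.88, 6.95 and 6.76 in control dogs. The DM dogs other than 0294 were above all control dogs, and the difference was 1.51 log2 (SE 0.84, limma adjusted p = 0.385). PTGFR, the receptor of prostaglandin F2 alpha, had a difference of 1.17 log2 (SE 0.73) with overlapping groups. All 3 prostaglandin receptors thus had a positive difference, and each had an unadjusted p above 0.05.

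The numbered orphan receptors hold 12 probe sets of 8 genes, with 7 positive and 5 negative differences and a median of 0.34 log2. GPR149 had 7.35, 9.57, 6.21 and 6.88 log2 in DM dogs and 4.91, 7.03, 5.93 and 5.33 in control dogs, a difference of 1.70 log2 (SE 0.78, limma adjusted p = 0.295). Its groups overlapped, the difference was 1.01 log2 without 0294, and its unadjusted limma p of 0.0483 was the largest among the 15 members. GPR137, just outside that limit at 0.0566, had 8.43, 4.94, 8.25 and 9.15 log2 in DM dogs and 9.62, 9.45, 9.28 and 9.30 in control dogs in 1586007_s_at. There the groups did not overlap, with 0294 far below the rest, and the difference was -1.72 log2 (SE 0.82, limma adjusted p = 0.314). Its other probe set had 0.38 log2 with overlapping groups. GPR107, GPR108, GPR137B, GPR157, GPR158 and GPR37 had overlapping groups in each of their probe sets, with differences of -1.14 log2 in GPR157 to 1.05 in 1 probe set of GPR107. P2RY14, a receptor of UDP-sugars, had 0.12 log2.

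**Figure D4:**
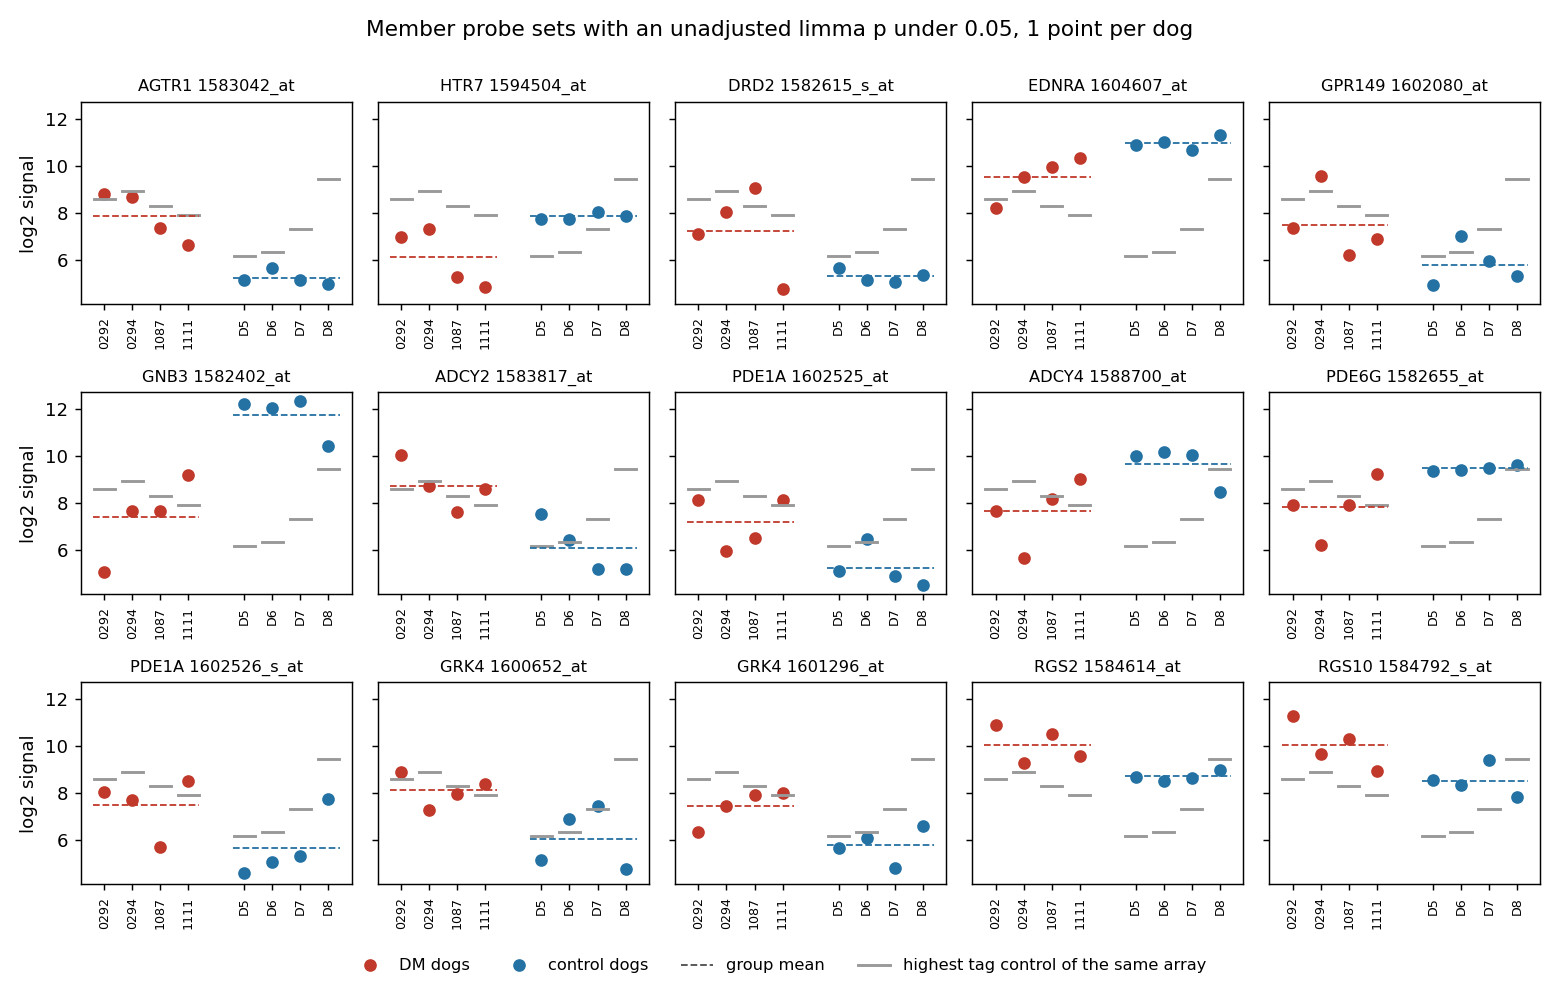
Log2 signal in each dog of the 15 member probe sets at an unadjusted limma p under 0.05, with DM dogs on the left and control dogs on the right of each panel, group means as dashed lines and the highest tag control of the same array as grey bars. In AGTR1 the DM dogs lie at 6.64 to 8.83, near their tag bars, while GNB3, EDNRA and PDE6G lie above the bars in all control dogs.

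Among the G protein subunits, the beta subunit GNB3 had the largest difference of all members. GNB3, a beta subunit best known from cone photoreceptors and expressed in other tissues too, had 5.06, 7.67, 7.66 and 9.19 log2 in DM dogs, and 12.21, 12.05, 12.34 and 10.45 in control dogs. All DM dogs were below all control dogs, with 0292 the lowest of all and D8 the lowest control dog. All control dogs were above their highest tag control, as was 1 DM dog, 1111. The means were 7.39 ± 1.71 log2 in DM dogs and 11.76 ± 0.89 in control dogs (SD, n = 4 each). The difference was -4.37 log2 (SE 0.83, limma adjusted p = 0.0608). With each DM value under its highest tag control set to that tag control, the DM mean was at least 8.07-fold lower. Its direction and its unadjusted p under 0.05 held in all 18 alternatives run, with differences of -6.32 to -3.84 log2 and limma adjusted p of 0.000352 to 0.270. The -6.32 and the 0.000352 came from scaling to the hybridization controls. There the median of all probe sets was -1.65 log2, and 7675 probe sets passed an adjusted p under 0.05. The limma adjusted p of GNB3 was under 0.05 without D8 (0.0361) and without 1111 (0.0275). No other probe set carries the symbol GNB3. Of the cardiomyocyte markers, all 10 with a probe set were also lower in DM dogs, 8 of them at an unadjusted p under 0.05 in limma. Their summed level was 116050 to 220230 in DM dogs and 287380 to 660670 in control dogs (exact permutation test, p = 0.0286), and its part in the GNB3 difference was not tested.

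GNB1, the most widely expressed beta subunit, gave opposite signs in its 4 probe sets. In 1583278_at it had 10.01, 8.94, 9.67 and 9.32 log2 in DM dogs and 8.40, 8.59, 8.54 and 9.07 in control dogs, a difference of 0.83 log2 (SE 0.56, limma adjusted p = 0.478). Only D8 reached into the DM range. In 1584439_at it had 6.98, 6.68, 9.18 and 8.67 log2 in DM dogs and 10.09, 9.94, 9.95 and 5.02 in control dogs. All control dogs but D8 were above all DM dogs, and D8 was the lowest of all. The difference was -0.87 log2 with D8 (SE 1.07) and -2.14 log2 without it. The other GNB1 probe sets, at -0.95 and -0.60 log2, were also lowest in D8 among control dogs, and without D8 their differences were -2.19 and -1.34 log2.

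The alpha subunits did not pass the test in either direction. GNAS, which encodes Gs alpha, had 12.22, 11.46, 11.37 and 12.89 log2 in DM dogs and 12.95, 12.82, 12.82 and 13.57 in control dogs. Only 1111 reached the control range, and the means were 11.98 ± 0.71 log2 in DM dogs and 13.04 ± 0.36 in control dogs (SD, n = 4 each). The difference was -1.05 log2 (SE 0.59, limma adjusted p = 0.390). GNAI2, a Gi alpha subunit, had a difference of 0.78 log2 (SE 0.88), and -0.12 without D8, the lowest control dog at 4.72. GNAQ and GNA11, the subunits that activate phospholipase C beta, had 1.03 and 1.41 log2 (SE 0.81 and 0.75) with overlapping groups. No DM value of either was above its highest tag control, while D6 was for GNAQ and D5 and D6 were for GNA11. GNAT1, the alpha subunit of rod photoreceptors, had 0.88 log2, and the gamma subunits GNG3 and GNG14 had -1.14 and -1.20.

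The adenylyl cyclases, which make cyclic AMP, hold 8 probe sets of 5 genes with a median of -0.03 log2. ADCY2 had 10.06, 8.71, 7.61 and 8.60 log2 in DM dogs and 7.56, 6.44, 5.20 and 5.19 in control dogs in 1583817_at. Each DM dog was above each control dog, although 1087 and D5 were nearly equal. DM dogs 0292 and 1111 and control dogs D5 and D6 were above the highest tag control of their array. The means were 8.75 ± 1.01 in DM dogs and 6.10 ± 1.14 in control dogs (SD, n = 4 each), a difference of 2.65 log2 (SE 0.73, limma adjusted p = 0.113). The other ADCY2 probe sets had -0.02 and 0.45 log2 with overlapping groups, so this difference rests on 1 probe set of 3. ADCY4 had 7.67, 5.68, 8.19 and 9.03 log2 in DM dogs and 9.99, 10.18, 10.07 and 8.46 in control dogs. Only D8 fell within the DM range, and the difference was -2.03 log2 (SE 0.76, limma adjusted p = 0.209). ADCY4 is expressed in endothelium among other tissues, and its difference without D8 was -2.45 log2. ADCY5 and ADCY6, the main cyclases of cardiac muscle cells, had 0.28 and -0.05 log2 in the probe sets of ADCY5 and -0.19 in that of ADCY6. In ADCY5 the 0.28 of 1582551_at was -0.76 without 0292, and the -0.05 of 1582766_at was -0.86 without D8. Their values lay mostly under the tag controls in DM dogs, with only 0292 above its highest tag control, in 1 probe set of ADCY5. ADCY3 had -0.10 log2.

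The phosphodiesterases hold 19 probe sets of 10 genes, with 9 positive and 10 negative differences. PDE1A, which is activated by calcium and calmodulin and breaks down cyclic GMP and cyclic AMP, has 7 of them. In 1602525_at it had 8.14, 5.97, 6.51 and 8.12 log2 in DM dogs and 5.10, 6.48, 4.89 and 4.50 in control dogs, a difference of 1.94 log2 (SE 0.71, limma adjusted p = 0.200). Control dog D6 lay within the DM range. In 1602526_s_at it had 8.07, 7.71, 5.70 and 8.53 log2 in DM dogs and 4.58, 5.05, 5.32 and 7.75 in control dogs. Here D8 lay within the DM range, and the difference was 1.83 log2 (SE 0.82, limma adjusted p = 0.286). The other 5 PDE1A probe sets ran from -1.25 to 0.77 log2. Of these, 1589874_s_at was above the highest tag control in all dogs but D8, with 8.78, 8.97, 9.39 and 7.92 log2 in DM dogs and 8.28, 7.12, 8.16 and 8.41 in control dogs. Its groups overlapped, and its difference was 0.77 log2 (SE 0.60, limma adjusted p = 0.547).

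PDE1C, the calcium-activated form of cardiac muscle cells in several species, had -0.33 and -0.53 log2 in the 2 probe sets that carry its symbol. In 1596350_at the DM dog 0292 had 11.95 log2 and the other DM dogs 6.11 to 7.64, against 8.22 to 9.30 in control dogs, and without 0292 the difference was -1.57 log2 in place of -0.33. A further probe set has no symbol in the annotation and is no member, but the study, which picked it on these samples, names it PDE1C. It had 9.80, 9.25, 8.03 and 9.69 log2 in DM dogs and 11.90, 12.22, 11.04 and 10.01 in control dogs. Its groups did not overlap, and its difference was -2.10 log2 (SE 0.68, limma adjusted p = 0.154). PDE4D and PDE4B, which break down cyclic AMP, had -0.48 and 0.30 log2 with overlapping groups, and PDE4B was above the highest tag control in no dog. PDE10A had -1.32 log2 (SE 0.74, limma adjusted p = 0.389).

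Subunits of PDE6, the phosphodiesterase of photoreceptors, hold 7 probe sets of 5 genes with a median of -0.64 log2. PDE6G, its inhibitory gamma subunit in rods, had 7.93, 6.22, 7.91 and 9.25 log2 in DM dogs and 9.38, 9.43, 9.49 and 9.62 in control dogs. Each DM dog was lower than each control dog, with 1111 close to D5, and all control dogs were above their highest tag control. The means were 7.83 ± 1.24 in DM dogs and 9.48 ± 0.11 in control dogs (SD, n = 4 each), a difference of -1.65 log2 (SE 0.67, limma adjusted p = 0.241). PDE6D, which carries prenylated proteins in many tissues, had 6.15, 8.20, 8.76 and 8.26 log2 in DM dogs and 9.30, 9.87, 9.78 and 7.64 in control dogs. All control dogs but D8 were above all DM dogs, and the difference was -1.30 log2 (SE 0.74, limma adjusted p = 0.398). PDE6A, PDE6B and PDE6H had -0.97 to 0.68 log2, with overlapping groups.

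Among the regulators, RGS2 had higher values in every DM dog than in every control dog. RGS2, which shortens signals of Gq, had 10.89, 9.29, 10.54 and 9.58 log2 in DM dogs and 8.68, 8.51, 8.65 and 9.01 in control dogs in 1584614_at. All DM dogs, and all control dogs but D8, were above the highest tag control of their array. The means were 10.07 ± 0.76 in DM dogs and 8.71 ± 0.21 in control dogs (SD, n = 4 each), a difference of 1.36 log2, or 2.57-fold (SE 0.59, limma adjusted p = 0.266). The other RGS2 probe set had 6.90, 7.36, 9.57 and 8.73 log2 in DM dogs and 5.82, 7.39, 8.44 and 6.25 in control dogs. It had the same sign, at 1.16 log2 (SE 0.78), with overlapping groups. RGS2 was thus positive in both probe sets, and both were negative once the arrays were scaled to the hybridization controls, at -1.01 and -0.68 log2, as the median of all probe sets then was (-1.65).

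RGS10, which acts on Gi and is abundant in immune cells, gave mixed values over 5 probe sets. In 1584792_s_at it had 11.28, 9.68, 10.29 and 8.95 log2 in DM dogs and 8.54, 8.36, 9.40 and 7.84 in control dogs. Control dog D7 reached into the DM range, and the difference was 1.51 log2 (SE 0.66, limma adjusted p = 0.270). The others had 1.14, 0.49, 0.02 and -0.04 log2. Of the 7 listed macrophage and monocyte markers, all with a probe set, 5 were higher and 2 lower in DM dogs, with CD68 at 1.47 log2 the 1 with an unadjusted p under 0.05. Their summed level was 2716 to 11412 in DM dogs and 2375 to 5551 in control dogs (exact permutation test, p = 0.0857), and its part in the RGS10 values was not tested. CD163 (1.62 log2, with overlapping groups) gave the largest part of this sum in every dog but 0294. The 2 lower markers were CSF1R (-1.20 log2) and CD14 (-1.10). Markers of other leukocytes, 4 of 8 of them with a probe set, summed to 240 to 593 in DM dogs and 369 to 503 in control dogs, with overlapping ranges.

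GRK4, a kinase that turns off activated receptors and is best known from kidney and testis, was 1 of the 2 genes with more than 1 probe set at an unadjusted p under 0.05, beside PDE1A. In 1600652_at it had 8.92, 7.28, 7.97 and 8.38 log2 in DM dogs and 5.15, 6.90, 7.44 and 4.76 in control dogs. Only 0294 was not above all control dogs, and the difference was 2.07 log2 (SE 0.72, limma adjusted p = 0.181). In 1601296_at it had 6.34, 7.46, 7.94 and 8.02 log2 in DM dogs and 5.68, 6.08, 4.79 and 6.58 in control dogs. Here 0292 lay below D8, and the difference was 1.66 log2 (SE 0.64, limma adjusted p = 0.219). In the first, 0292 and 1111 of the DM dogs and D6 and D7 of the control dogs were above their highest tag control. In the second, only 1111 was. The third GRK4 probe set, 1603297_x_at, had 0.40 log2 (SE 0.93), with 9.43 in 0292 and 4.54 to 5.32 in the other DM dogs, beside 5.18 to 6.33 in control dogs. RGS6, which acts with the vagal receptor in the sinus node of mice, had 0.42 and -0.30 log2, RGS12 had 0.10, -0.05 and -1.04, and RGS14 had -0.20, all with overlapping groups.

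The 4 genes that share only the name pattern are ADCYAP1, a neuropeptide, PTGFRN, a membrane protein that binds the prostaglandin F receptor, PTGR1, an enzyme that breaks down prostaglandins and leukotrienes, and RGS7BP, an anchor of RGS proteins. Their differences were -1.56, 0.90, 0.55 and -0.30 log2, each with overlapping groups. PTGR1 was above the highest tag control in all dogs but D8, with 10.27, 10.64, 10.27 and 10.82 log2 in DM dogs and 10.09, 9.94, 10.80 and 8.97 in control dogs. It was the least variable of these genes among DM dogs.

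Probe sets of the same gene often disagreed. Of the 59 genes, 24 had more than 1 probe set, and in 15 of these the probe sets had both signs. The median gap between the highest and the lowest probe set of a gene was 1.12 log2. Of the 13 genes with a probe set at an unadjusted p under 0.05, 8 had several probe sets. A name that ends in _s_at or _x_at marks a probe set that, by the manufacturer's design, can match several transcripts, and such names stand beside the values of DRD2, RGS10, PDE1A, GPR137 and GRK4 above. By gene models of the current dog annotation, 12 of 58 member genes overlap another protein coding gene, GRK4 among them. Probe sequences were not used here, so which transcript a probe set matches was not checked.

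**Figure D5:**
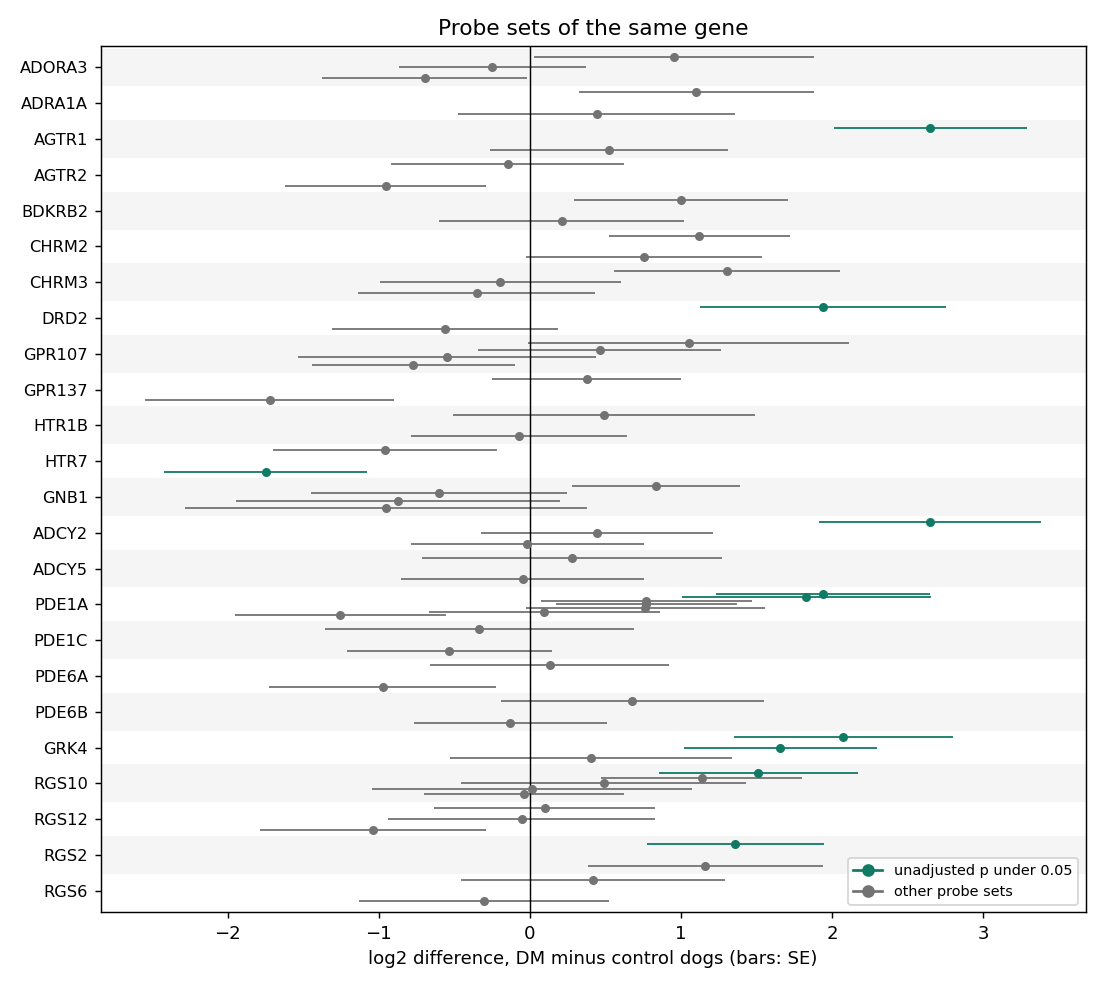
Log2 difference (DM minus control) with its standard error for each probe set of the 24 member genes that have more than 1, 1 row per gene, with green points at an unadjusted limma p under 0.05. In AGTR1, ADCY2 and DRD2 a single probe set lies at 1.94 log2 or more and the others at 0.53 or less.

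The spread between dogs was large beside most differences. The median SD over the 100 members was 1.25 log2 in DM dogs and 0.88 in control dogs, and it was larger in DM dogs for 82 members, beside 76.7% of all tested probe sets. Without D8 the control value was 0.53, and without 0292 the DM value was 1.17. D8 was the lowest control dog in 35 members and the highest in 35 others, and 0292 was the lowest DM dog in 24 and the highest in 33. Leaving out 1 dog turned the sign in 15 of the 52 member probe sets for which this was run, of ADCY5, ADCY6, ADORA3, ADRA1A, AGTR2, BDKRB2, CHRM3, GNAI2, PDE1C, PDE4D and RGS6. It did so in 0 of those at an unadjusted p under 0.05 in limma, but that choice favours large differences, so no stability can be read from it. Without 1 dog that p was lost in 6 runs for DRD2 and 1602526_s_at of PDE1A, and in 5 for PDE6G, RGS10 and GPR149. It was lost in 0 runs for GNB3, AGTR1, ADCY2, 1600652_at of GRK4 and 1602525_at of PDE1A, and in 3 or 4 for the rest. The median standard error of a member's difference was 0.77 log2. Of the 10 members that were higher at an unadjusted p under 0.05, RGS2 and RGS10 had all DM dogs above their highest tag control, and over all 10 members 18 of 40 DM values were above it. Of the 5 that were lower, GNB3, PDE6G and EDNRA had all control dogs above it.

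Downstream of the receptors, 20 listed genes of protein kinase A, its anchors and targets, phospholipase C and other effectors had a probe set. Their median difference was 0.45 log2, with 14 positive and 6 negative values, beside 0.06 over all tested probe sets. Each gene was represented by its brightest probe set, so these medians are not of like level. All probe sets above the median level had -0.28 log2, and the contrast was not tested. At an adjusted p under 0.05, 0 passed in limma and 0 in the methods' t-test. At an unadjusted p under 0.05, 5 of the 20 were higher and 2 lower, beside 7.8% and 8.91% of all probe sets, and in 2 the groups did not overlap, beside 10.8%. AKAP9, which anchors protein kinase A at the Golgi and at a potassium channel of the heart, had 13.12, 13.55, 13.74 and 13.37 log2 in DM dogs and 10.78, 10.56, 11.44 and 13.08 in control dogs. Every DM dog was above every control dog, with D8 close to the DM dogs, and the difference was 1.98 log2 (SE 0.66, limma adjusted p = 0.164). Of the other AKAP9 probe sets, 1605119_at was also higher in every DM dog than in every control dog, at 1.67 log2 (SE 0.59, limma adjusted p = 0.182), and 1587911_at had the opposite sign, at -0.79 log2 with overlapping groups. In 1587911_at, 0294 had 6.23 log2 and the other DM dogs 9.42 to 10.05, beside 9.52 to 9.94 in control dogs. PLCB4, a phospholipase C activated by Gq, had 9.23, 7.95, 8.12 and 8.78 log2 in DM dogs and 7.89, 6.33, 6.96 and 5.37 in control dogs. Its groups did not overlap either, with a difference of 1.88 log2 (SE 0.67, limma adjusted p = 0.186). Only DM dogs 0292 and 1111 and control dog D5 were above the highest tag control of their array.

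Subunits of protein kinase A, the enzyme that cyclic AMP activates, had both signs. PRKACA, a catalytic subunit, had a difference of 1.50 log2 (SE 0.63) and was above the highest tag control in no dog. The regulatory subunit PRKAR2B had 1.98 log2 (SE 0.71), and 1.17 in its other probe set. In the first, only 0292 and D6 were above their highest tag control, and in the other no dog was. The regulatory subunit PRKAR1A had 5.76, 6.64, 5.28 and 9.43 log2 in DM dogs and 10.15, 10.00, 9.63 and 7.44 in control dogs. Only 1111 and D8 overlapped, and the difference was -2.53 log2 (SE 0.92, limma adjusted p = 0.199). CREM, a transcription factor that protein kinase A phosphorylates, had 11.74, 10.42, 11.00 and 9.64 log2 in DM dogs and 8.64 to 9.83 in control dogs. It was above the highest tag control on all 8 arrays, 1111 lay below D8, and the difference was 1.63 log2 (SE 0.63, limma adjusted p = 0.220). CAP1, an actin-binding protein whose yeast counterpart binds adenylyl cyclase, had -2.13 log2 (SE 0.86, limma adjusted p = 0.237), and another CAP1 probe set had 0.05.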

How the data were processed

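Cardiac RNA of 4 DM dogs and 4 control dogs was hybridized to 1 Affymetrix Canine Genome Array per dog. Per the labels and the methods, the authors summarised each array with MAS 5 to 1 signal intensity per probe set, and the deposited intensities are linear, with a mean of 500.04 to 500.13 per array after trimming 2% at either end. The RMA step that the methods name is not in these values and was not repeated. Detection calls and scanner images were not used here.

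Of 23913 probe sets, 77 controls of the manufacturer were left out and 23836 were tested. Arrays were scaled to a trimmed mean of 500, quantile normalized, and log2 was taken after an offset of 16, which stands in for the variance stabilization of the methods. Groups were compared with limma 3.58.1 in R 4.3.3 (lmFit, eBayes, group only, two-sided), adjusted by Benjamini-Hochberg over all tested probe sets, with a threshold of 0.05. The methods' t-test used equal variances, P of at most 0.01 and at least 2-fold. Exact permutation tests ran over 70 assignments. The steps were tested on simulated data. Figures were drawn with matplotlib 3.10.9. The number of arrays limits the precision.

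Gene symbols are those of the platform annotation (10549 probe sets with 1 symbol, 138 with several, 13149 with none), and 99 of 100 members matched a current RefSeq symbol by gene ID. The members, classes, downstream list and markers were chosen with earlier results of these data known. The rule for named genes takes a list of cardiac receptors, G proteins and enzymes, each member gene with an unadjusted p under 0.05, the downstream genes with the smallest p, and the control probe sets. Other members are named only to account for all of them, after their values were seen. Each downstream or marker gene is represented by its probe set with the highest mean signal. The tag controls were chosen as a measure after seeing the data. Alternatives were other normalizations, offsets of 1 and 64, leaving out the dimmest 40% of probe sets, the methods' t-test, array weights, 1 probe set per gene, other probe sets, and leaving out dogs.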

Additional observations from a re-analysis of the deposited data

Results flagged for a closer look

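In 13 of the 118 groups of 4 dogs that were looked at, 1 dog stood far from the other 3, so that its gap to the nearest of them was a larger part of the group's range than Dixon's limit for 4 values. For normally distributed values chance gives about 1 in 20, or 5.9 of 118. The groups include several probe sets of the same gene, and the share over all tested probe sets was not computed. No excess can therefore be read from the 13. Of the 13 dogs, 6 were D8. Among control dogs, D8 had 10.45 log2 for GNB3, while the others had 12.05 to 12.34. For ADCY4 it had 8.46, beside 9.99 to 10.18. For the AGTR2 probe set 1583053_at it had 6.95, beside 7.76 to 7.89. In 3 of the 4 GNB1 probe sets D8 was lowest, with 5.02 beside 9.94 to 10.09 in 1584439_at, 4.61 beside 9.27 to 9.64 in 1601181_s_at, and 5.33 beside 8.17 to 8.42 in 1601476_s_at. Control dog D6 was high for GNAQ, with 7.77 beside 5.64 to 5.95, and control dog D7 was high for the CHRM2 probe set 1582943_at, with 7.34 beside 4.93 to 5.05.

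Among DM dogs, 0294 was low for PTGER2, with 5.05 beside 8.26 to 8.40, and for the ADRA1A probe set 1582843_at, with 5.03 beside 7.79 or more. DM dog 0292 had 4.74 log2 in the second AGTR1 probe set, 1583043_at, beside 7.58 to 8.04 in the others. DM dog 1111 was low for the ADCY5 probe set 1582766_at, with 5.88 beside 7.34 to 7.43, and DM dog 1087 was high for ADCY6, with 7.42 beside 4.74 to 5.15.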

How the results depend on the processing

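No paired analysis was possible because the labels give the DM and control dogs no shared replicate numbers. With arrays scaled to the hybridization controls, the median of all probe sets moved to -1.65 log2 (main 0.06; -0.25 with median centring, 0.34 without quantile normalization), and only differences relative to it can be read. In that setting 7675 probe sets and 26 members passed an adjusted p in limma, 37 members an unadjusted p (45.3% of all probe sets), 9 the criteria of the methods (10.9%), and groups did not overlap in 17 (16.9%). The medians were then -1.52 for receptors, -2.12 for G proteins, -1.51 for effectors, -1.31 for regulators and -1.59 for downstream genes. Of the 100 members 9 were then positive and 91 negative (main 53 and 47). Signs turned, among others, for RGS2 (-1.01), RGS10 (-1.09), GPR149 (-0.0249), PTGER4 (-1.91), GNAQ (-0.63), GNA11 (-0.16), GNAI2 (-1.21), PTGFR (-0.59), AKAP9 (-0.62), PLCB4 (-0.0456), CREM (-0.96) and PRKACA (-0.12). Signs also turned with another probe set of ADCY2 (-0.0161), PDE1A (-1.25), DRD2 (-0.56), RGS10 (-0.0372), AKAP9 (-0.79) and CAP1 (0.0493). The count of all probe sets at an adjusted p (main 4) was 0 without quantile normalization, 239 with median centring, 24 with cyclic loess, 0 with offset 1, 446 with offset 64, 20 without the dimmest, 22 by the methods' t-test, 923 with array weights, and 0 to 475 without any 1 dog. The count of members (main 0) was 1 with median centring and with offset 64 (GNB3), 2 with array weights (AGTR1 and GNB3), and 0 to 2 without 1 dog (GNB3 without D8, AGTR1 and GNB3 without 1111). At an unadjusted p it was 9 of 53 members without the dimmest (20.7% of all probe sets), and 7 to 18 of 100 without 1 dog (main 15, 16.7% of all). It was 8 without D5 (11.1% of all), 9 without D6 (10.7%), 7 without D7 (11.5%) and 18 without 0292 (19.4%). The criteria of the methods (main 2, 4.96% of all) passed 5 members without quantile normalization (4.98% of all) and 6 with cyclic loess (5.63%). They passed 1 of 53 without the dimmest (6.31%) and 1 of 59 with 1 probe set per gene (4.96%). Without 1 dog they passed 1 to 5, with 1 without D6 (2.55%), D7 (2.8%) or D8 (6.13%), and 5 without 0292 (5.3%) or 1111 (6.65%). Groups did not overlap in 10 to 15 members without 1 dog (12.3% to 20.9% of all probe sets; main 8, 10.8% of all), where fewer dogs overlap less. Medians moved for receptors to -0.25 without the dimmest (0.11 to 0.30 without 1 dog; also 0.0115 with median centring and 0.60 without quantile normalization), for G proteins to 0.78 with 1 probe set per gene (-0.87 to -0.26), for effectors to 0.28 without quantile normalization, -0.31 with median centring and -0.23 without the dimmest (-0.13 to 0.11), for regulators to 0.96 without 0294 (0.19 to 0.96; also 0.03 with 1 probe set per gene and 0.0652 with median centring), and for downstream genes to 0.0642 with median centring and 0.73 with cyclic loess (0.27 to 0.56). Without D8 and 0292 together, chosen after seeing the data, 952 probe sets and 1 member (GNB3) passed an adjusted p, 4 members the criteria of the methods (8.11% of all), 21 did not overlap (30.3% of all), and the regulators had -0.071. The 3 prime minus 5 prime difference of GAPDH was -1.68 log2 (DM minus control) as deposited and -2.60 after quantile normalization (exact permutation test, p = 0.171 and 0.0286), and that of actin 2.27 and 2.31 (exact permutation test, p = 0.229 and 0.171). As deposited, actin had 6.02, 5.62, 3.59 and 7.71 log2 in DM dogs and 1.69, 1.35, 3.04 and 7.79 in control dogs. D8 was the highest of all dogs for actin and also for GAPDH (6.08), so the 2 ends of a transcript are not measured alike on all arrays. Of the 264 values of the 15 members at an unadjusted p under 0.05 in these alternatives, 180 kept direction and that p, 81 kept direction alone and 3 reversed. The causes were not tested. Values near the tag controls limit what these arrays can show for most members.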

Other observations

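The manufacturer's controls on this array include 3 probe sets of a dog adrenergic receptor, toward its 3 prime end, its middle and its 5 prime end, which lie outside the tested probe sets. The 3 prime probe set had 6.77, 7.38, 8.28 and 7.50 log2 in DM dogs and 6.82, 7.63, 5.30 and 5.58 in control dogs. It was above the highest tag control on 2 arrays, and the means were 7.48 ± 0.62 in DM dogs and 6.33 ± 1.09 in control dogs (SD, n = 4 each; exact permutation test, p = 0.200). The middle probe set averaged 6.97 in DM dogs and 6.11 in control dogs (exact permutation test, p = 0.229), and the 5 prime probe set 6.34 in DM dogs and 5.64 in control dogs (exact permutation test, p = 0.514). The middle and 5 prime probe sets were above the highest tag control on 0 arrays.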
